A study of Mus musculus with 12 samples.

Results

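The mitosis genes described here are 42 genes for the kinases, checkpoint proteins, kinetochore parts, motors and chromosome proteins of cell division. They were chosen by name from the 24197 rows of the expression table, with earlier results of these data known. All 42 were found. Their expression was followed in E0771 cells, a mouse mammary tumor line grown in culture, in 4 groups of 3 RNA-seq libraries. Control cells received vehicle and were collected at 72 h. The 4HC group was exposed for 4 h to 4.2 µM 4-hydroperoxycyclophosphamide, an activated form of the DNA-alkylating drug cyclophosphamide, then washed and kept in fresh medium for 68 h. The third group received the same drug together with 10 µg/mL of an antibody against IFNAR1, a subunit of the type I interferon receptor, which stayed in the medium after the wash. The last group received 27.8 U/mL of the type I interferon IFNβ for 4 h and was collected 2 h after the wash, so it differs from the other groups in time after treatment as well as in agent. No group received the antibody without the drug. The comparisons ask how gene expression changed after the drug, how much of that needed the interferon receptor, and what interferon does without the drug.

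The values are the authors' mean FPKM per group (fragments per kilobase of transcript, scaled to the mapped reads). No value per library is given in the table, so no SD, error or test between groups can be computed from the means, depth per library is unknown from it, and no difference below was set against the spread between the 3 libraries of a group. The table also holds the P values of the authors' own comparisons, which were not used. Differences are given as log2 ratios of the group means after adding 0.1 FPKM to each, which slightly understates the difference of low genes. A gene is counted as lower or higher when its log2 ratio is beyond 0.32, that is a mean 20% lower or 25% higher, and as past 2-fold, the cutoff used by the study, beyond 1. The counts are set beside the 9890 genes whose mean over the 4 groups was at least 1 FPKM, a level that all 42 mitosis genes reached. In these bulk samples, fewer dividing cells and less mitotic RNA in each dividing cell cannot be told apart.

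Cells enter mitosis when CDK1 bound to cyclin A or cyclin B is switched on by CDC25 phosphatases. Kinetochores then attach the duplicated chromosomes to spindle microtubules, and the spindle checkpoint holds the anaphase-promoting complex (APC/C) in check until all are attached. The APC/C next marks securin and cyclin B for destruction, separase cuts the cohesin that holds sister chromatids together, and the cell divides. Transcripts of most of these genes accumulate in G2 phase, so in a growing tumor culture they mark proliferation.

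The group labels could be checked on genes with a known response. ISG15, a ubiquitin-like protein induced by interferon, was at 5.11 FPKM in control cells, 117.6 after 4HC, 19.4 after 4HC plus antibody and 171.7 after IFNβ. MX1, IGTP, USP18 and IRF7 were likewise higher with 4HC and with IFNβ than in control cells, by log2 4.47 to 5.16 and 5.07 to 6.44. Of the epithelial markers, KRT8 was at 46.5 to 75.3 FPKM, but KRT18, EPCAM, CDH1, KRT5 and KRT14 were all under 1 FPKM, so the mammary epithelial label rests on KRT8 alone. COL1A1 (18.7 to 26.7 FPKM) and PDGFRA (5.94 to 10.9 FPKM), which mark fibroblasts and other mesenchymal cells, were expressed, THY1 was below 0.01 FPKM in every group, and the 5 leukocyte markers summed to 0.0062 to 0.05 FPKM. The table summed to 203650 FPKM in control cells, 197196 after 4HC, 217375 after 4HC plus antibody and 214728 after IFNβ.

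In control cells the 42 genes ranged from 3.81 FPKM for TTK to 90.2 FPKM for UBE2C, with a median of 19.5 FPKM. UBE2C, the ubiquitin-conjugating enzyme of the APC/C, TOP2A, the topoisomerase that untangles chromosomes, and CCNA2 (cyclin A2) had the highest control means. The lowest means belonged to TTK, SPC25 and CDC25C. The 42 means added up to 1045 FPKM in control cells, 836.7 after 4HC, 934.0 after 4HC plus antibody and 1010 after IFNβ. As a share of all FPKM in the table these sums were 0.513%, 0.424%, 0.43% and 0.471%, so both drug-treated groups gave the lower shares. The 4HC group had, as deposited, the lowest of the 4 means in 32 of the 42 genes (76.2%), against 27.3% of the 9890 genes. It had the highest mean in 0 of the 42, against 23.4% of the 9890 genes. The 32 depends on the scale. With the groups rescaled to one sum, 24 of the 42 had a lower mean with 4HC plus antibody than with 4HC alone. On that scale the median log2 ratio of all genes in this comparison was −0.14.

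**Figure D1:**
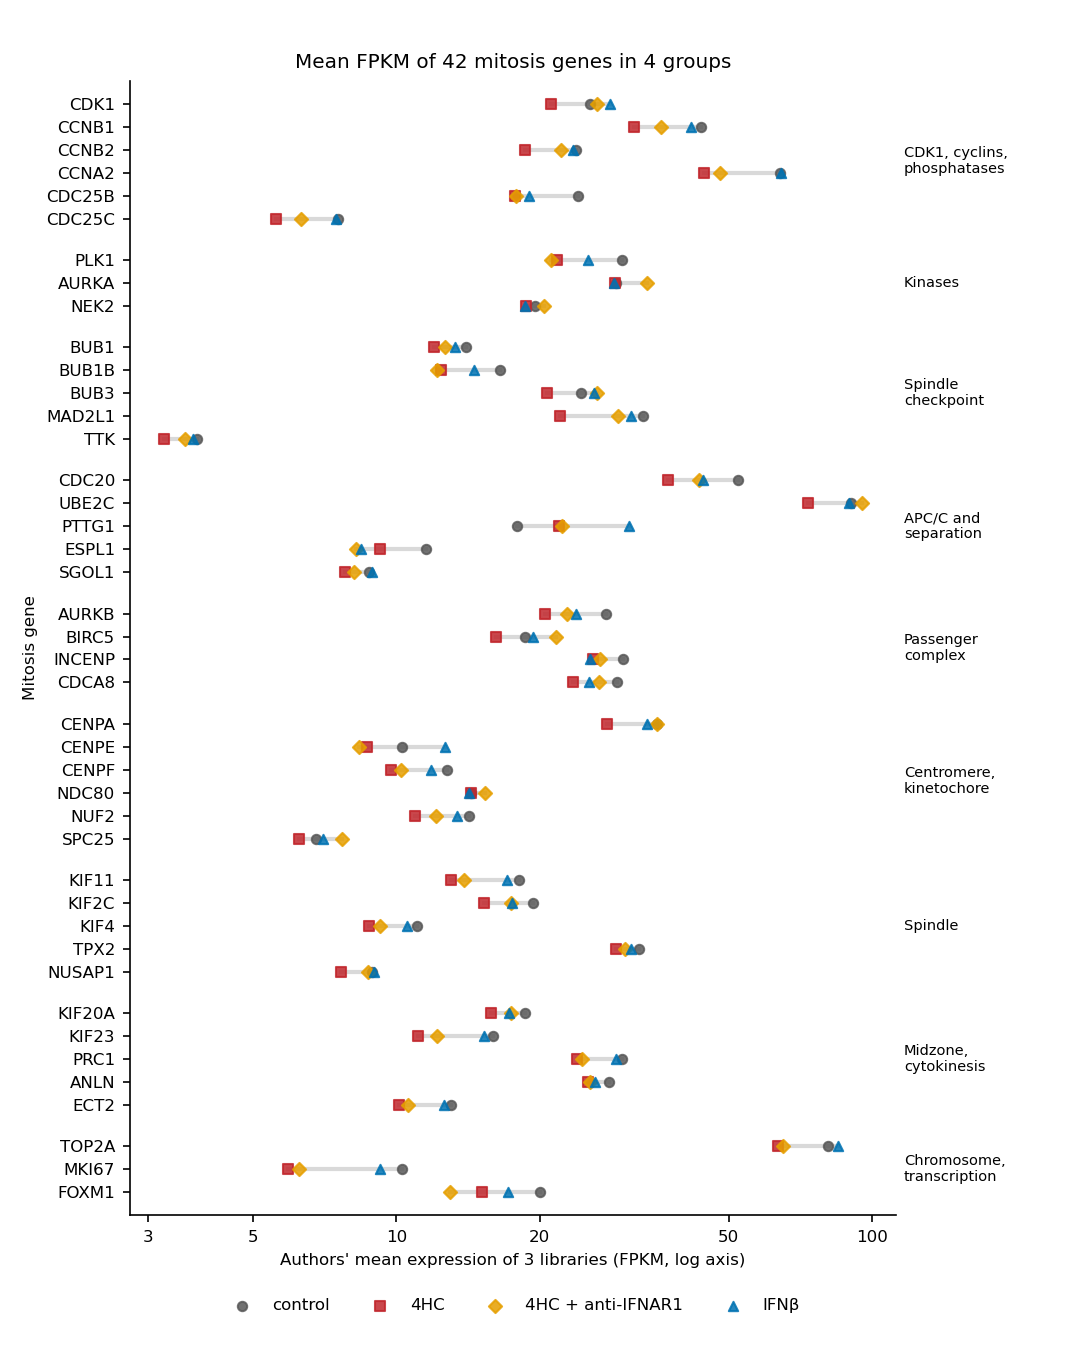
Mean expression of the 42 mitosis genes, by role. The horizontal axis is the authors' mean FPKM of 3 libraries on a log axis, each row is a gene, and the 4 symbols are the 4 groups joined by a grey line from the lowest to the highest mean. On the deposited scale shown, the red squares (4HC) are the lowest symbol in 32 of 42 rows. PTTG1 is the row where the grey control circle is lowest.

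Many G2 and mitosis promoters carry a cell cycle genes homology region (CHR), bound by the MuvB complex, together with CCAAT boxes, bound by NF-Y. Promoter windows of 300 bases, from 250 before to 50 after the RefSeq start site in mouse build GRCm38.p6, were matched for 35 of the 42 genes, as 38 windows. The CHR letters TTTGAA or TTCGAA, on either strand, occurred in 30 of the 38 windows (78.9%), in 19.2% of all 32851 windows and in 13.7% of the 9871 windows of genes with at least 1 FPKM. A CCAAT box, CCAAT on either strand, occurred in 78.9% of them against 37.4% of all windows, 2 or more boxes in 52.6% against 11.7%, and both elements together in 71.1% against 7.52%. Matches of the 2 elements overlapped each other in 1 of the 38 windows, and the windows of BUB3, ECT2 and PRC1 are counted for each of 2 nearby start sites. A match in letters is not evidence of binding, and the table used here has no entry matched to CCNA2, CDC25C, AURKB, INCENP, TPX2, KIF20A or FOXM1.

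The 4 windows printed here include those of MKI67, with the lowest 4HC ratio, and of PTTG1, the gene above control. The others belong to CDC20 and CCNB2, genes with lower means after 4HC and both elements in the window. Capitals mark CHR and CCAAT letters, on either strand.
MKI67 promoter, chr7:135716330-135716629, minus strand: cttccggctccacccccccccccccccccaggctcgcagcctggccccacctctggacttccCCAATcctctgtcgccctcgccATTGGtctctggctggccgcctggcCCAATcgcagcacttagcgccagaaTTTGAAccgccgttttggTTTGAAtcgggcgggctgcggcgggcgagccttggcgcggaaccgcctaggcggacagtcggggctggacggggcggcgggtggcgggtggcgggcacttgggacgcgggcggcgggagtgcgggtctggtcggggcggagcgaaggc
CDC20 promoter, chr4:118437294-118437593, minus strand: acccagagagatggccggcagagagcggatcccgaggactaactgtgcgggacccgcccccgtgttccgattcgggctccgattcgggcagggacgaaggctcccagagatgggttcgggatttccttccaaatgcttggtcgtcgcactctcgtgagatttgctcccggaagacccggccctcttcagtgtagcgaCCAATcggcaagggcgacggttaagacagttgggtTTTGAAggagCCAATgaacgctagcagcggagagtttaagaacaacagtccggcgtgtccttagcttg
CCNB2 promoter, chr9:70421505-70421804, minus strand: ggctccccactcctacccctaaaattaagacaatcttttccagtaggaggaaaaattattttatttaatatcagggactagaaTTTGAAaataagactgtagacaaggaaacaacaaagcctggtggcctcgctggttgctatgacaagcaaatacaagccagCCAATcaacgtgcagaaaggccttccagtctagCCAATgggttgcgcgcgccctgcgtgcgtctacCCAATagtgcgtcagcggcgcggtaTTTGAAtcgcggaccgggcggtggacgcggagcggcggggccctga
PTTG1 promoter, chr11:43425932-43426231, minus strand: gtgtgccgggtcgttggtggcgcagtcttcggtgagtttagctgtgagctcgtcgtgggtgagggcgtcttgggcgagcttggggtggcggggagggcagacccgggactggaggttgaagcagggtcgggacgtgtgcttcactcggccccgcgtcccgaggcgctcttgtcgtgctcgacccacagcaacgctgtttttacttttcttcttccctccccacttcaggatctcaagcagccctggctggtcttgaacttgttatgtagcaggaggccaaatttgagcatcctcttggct
In MKI67 the CHR matches begin 116 and 98 bases before the start site, and the CCAAT matches begin 188, 166 and 141 bases before it. CDC20 has a CHR match beginning 18 bases before the start and CCAAT boxes beginning 53 and 8 bases before it. The CCNB2 window holds 3 CCAAT boxes, beginning 87, 54 and 21 bases before the start, and CHR matches beginning 167 bases before it and at base 5 after it. No CHR or CCAAT letters were found in the PTTG1 window. Among the 35 genes with a window, the 27 with a CHR match had a median 4HC log2 ratio of −0.33 (range −0.78 to −0.00), and the 8 without one had −0.23 (range −0.58 to 0.29), so the ranges of the 2 sets overlapped over most of their extent.

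After 4HC, 41 of the 42 mitosis genes had a lower mean than in control cells, or 39 when the groups were rescaled to one sum, which put AURKA and NDC80 just above 0. Of the 9890 genes, 54.6% had a lower mean as deposited, and rescaling moved their median log2 ratio from −0.03 to 0.01. PTTG1 was above control on every scale tried. The median log2 ratio was −0.32, a mean 20% lower, against −0.03 for all genes. Beyond 0.32, 21 of the 42 were lower against 14.6% of all genes, and 0 were higher against 16.3%. By more than 2-fold, 0 of the 42 were lower, against 0.283%, and 0 higher, against 3.36%. The differences were therefore small and shared across the set rather than large in a few genes. The 0.32 line falls inside a dense run of genes, with KIF4 (−0.33) and KIF2C (−0.34) just past it and PRC1 (−0.32), ESPL1 (−0.32), CDCA8 (−0.31) and UBE2C (−0.30) just short. With the groups rescaled to one sum the median was −0.28, with 15 of the 42 lower beyond 0.32 against 11% of all genes. Among genes with a mean of at least 5 FPKM, the level of 41 of the 42, the median of all genes was −0.08.

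**Figure D2:**
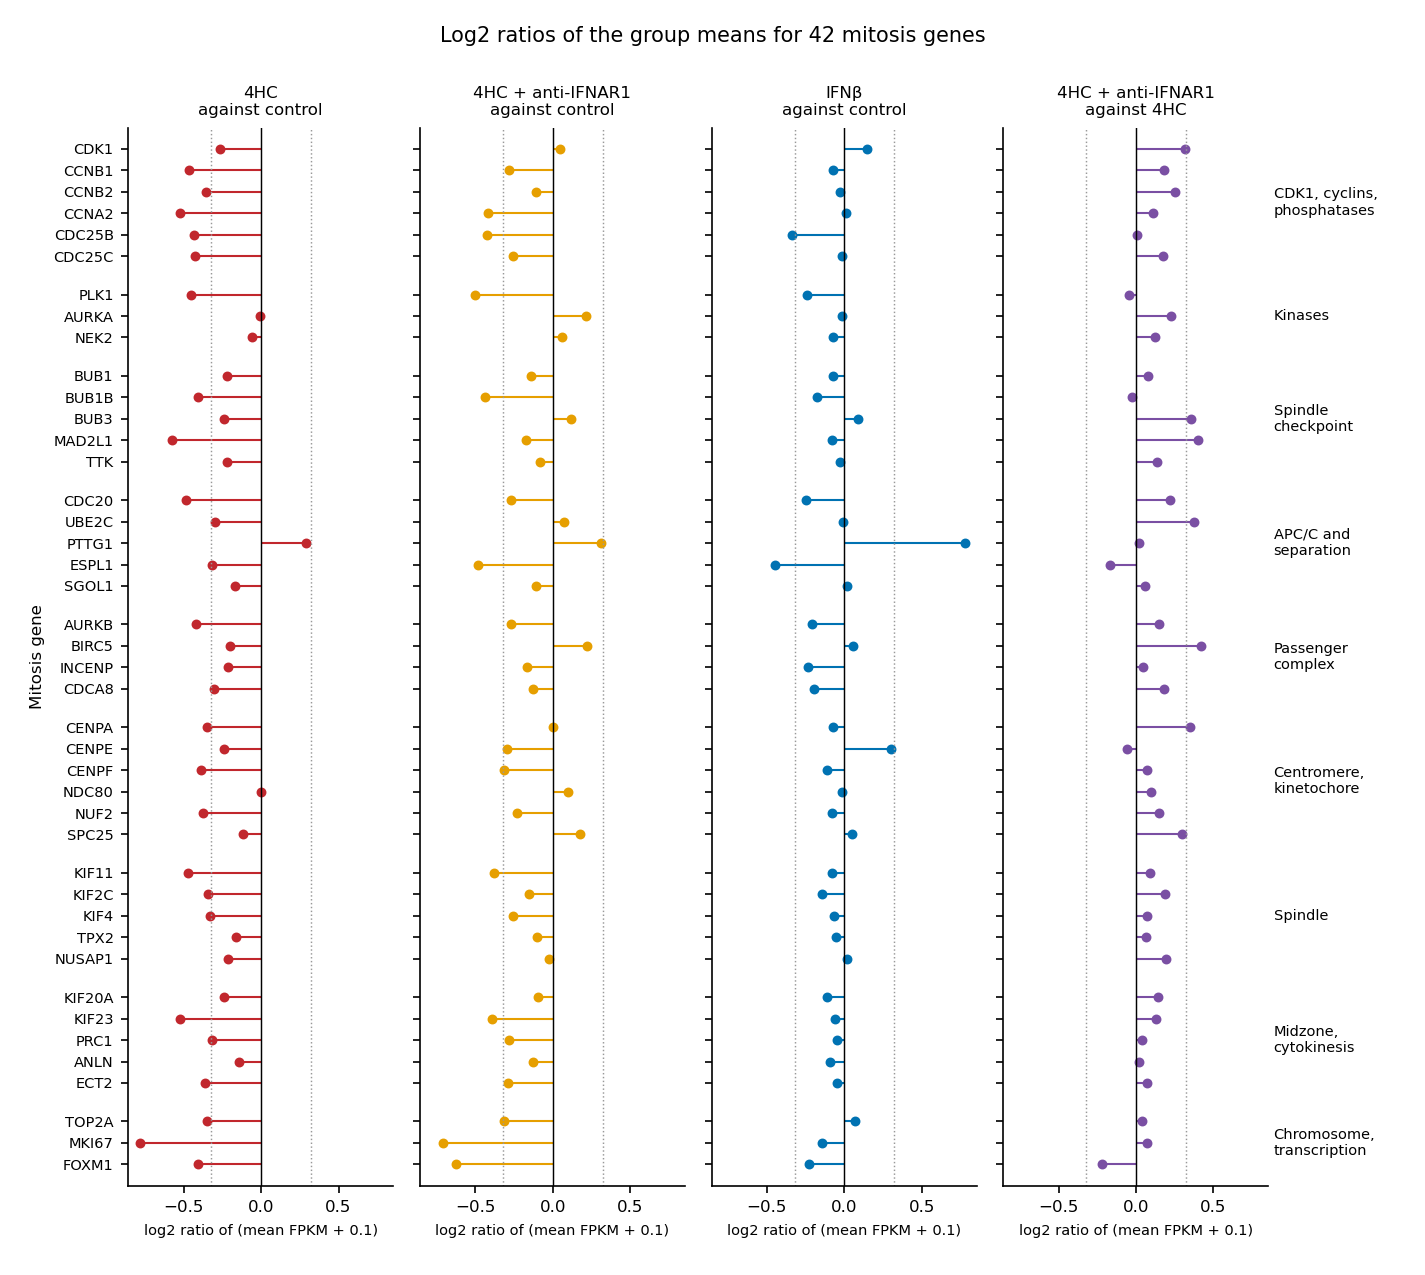
Log2 ratios of the group means (each + 0.1 FPKM) for the 42 mitosis genes in 4 comparisons, by role. Each point is a gene, the solid line is 0 and the dotted lines are −0.32 and 0.32. In the 4HC column 41 of 42 points lie left of 0 (39 after rescaling the groups to one sum), and in the IFNβ column most lie close to 0, with PTTG1 at 0.78.

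CDK1, its cyclins and its activating phosphatases had a median log2 ratio of −0.43 after 4HC, and 5 of the 6 were lower beyond 0.32. For this group and those below, each of 3 to 6 genes, the share of all genes lower beyond 0.32 was 14.6%. Groups this small cannot be ranked by these counts. CCNA2, the cyclin of S and G2 phase, was at 63.9 FPKM in control cells, 44.4 after 4HC, 47.9 after 4HC plus antibody and 64.3 after IFNβ. CCNB1 (cyclin B1, mm9 chromosome 13, 101548693 to 101556441) was at 43.7, 31.7, 35.9 and 41.6 FPKM in the same order. In both cyclins the drug-treated means were the lower ones, and the IFNβ mean stood near control. CCNB2 (cyclin B2) was at 23.9, 18.6, 22.2 and 23.5 FPKM, and CDK1 itself, the kinase that these cyclins activate, at 25.5, 21.2, 26.4 and 28.2 FPKM. CDK1 thus had the smallest 4HC difference of the group (log2 −0.27) and a control mean inside the range of the other groups. The phosphatases that activate it, CDC25B (24.1, 17.8, 17.9 and 19.0 FPKM) and CDC25C (7.55, 5.59, 6.31 and 7.46 FPKM), both had log2 −0.43. CDC25B was low in all 3 treated groups, CDC25C in the 2 drug-treated ones. CCNA2 overlaps a neighboring gene, EXOSC9, in the table's coordinates.

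The 3 kinases of the centrosome and of mitotic entry differed among themselves. PLK1, which promotes mitotic entry and spindle formation, was at 29.9 FPKM in control cells, 21.8 after 4HC, 21.1 after 4HC plus antibody and 25.3 after IFNβ, a log2 ratio of −0.45 for 4HC. AURKA, the centrosomal Aurora kinase, was at 29.0, 28.8, 33.7 and 28.7 FPKM (log2 −0.01). NEK2, which releases the link between duplicated centrosomes, was at 19.6, 18.8, 20.4 and 18.6 FPKM (log2 −0.06). AURKA and NEK2 were among the genes nearest to control after the drug.

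The spindle checkpoint genes, whose products delay anaphase until kinetochores are attached, had a median of −0.24, and 2 of 5 were lower beyond 0.32. MAD2L1 (MAD2, the inhibitor that captures CDC20, mm9 chromosome 6, 66485461 to 66490985) was at 33.0 FPKM in control cells, 22.1 after 4HC, 29.3 after 4HC plus antibody and 31.2 after IFNβ. Its 1.49-fold lower mean was the second largest difference among the 42 genes. BUB1B (BUBR1) was at 16.5, 12.4, 12.2 and 14.6 FPKM, so its mean with the antibody stayed at the 4HC level. BUB3, which brings BUB1 and BUBR1 to kinetochores, was at 24.4, 20.7, 26.5 and 26.0 FPKM, low after 4HC alone. TTK (the checkpoint kinase MPS1) was at 3.81, 3.26, 3.59 and 3.74 FPKM. It and BUB1, another checkpoint kinase, both had a 4HC log2 ratio of −0.22.

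Among the genes that activate the APC/C and separate sister chromatids, the median was −0.30. CDC20, the APC/C activator and MAD2 target, was at 52.2 FPKM in control cells, 37.2 after 4HC, 43.3 after 4HC plus antibody and 44.0 after IFNβ (log2 −0.49 for 4HC). It was the 1 gene of these 5 past the 0.32 line, and its row overlaps ELOVL1. UBE2C was at 90.2, 73.3, 95.0 and 89.6 FPKM, low with 4HC only. ESPL1 (separase) was at 11.5, 9.24, 8.22 and 8.43 FPKM, low in all 3 treated groups, and SGOL1 (shugoshin, which protects centromeric cohesin) at 8.77, 7.80, 8.14 and 8.88 FPKM. PTTG1 (securin, the inhibitor of separase, mm9 chromosome 11, 43233749 to 43239750) was at 17.9, 22.0, 22.3 and 30.8 FPKM. Its control mean was the lowest of the 4, and its 4HC ratio of log2 0.29 was the only one above 0 among the 42.

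The chromosomal passenger complex, which corrects faulty attachments and later directs cytokinesis, had a median of −0.26. AURKB, its kinase, was at 27.6 FPKM in control cells, 20.6 after 4HC, 22.8 after 4HC plus antibody and 23.9 after IFNβ, and was the 1 subunit of 4 past the 0.32 line. BIRC5 (survivin) was at 18.6, 16.2, 21.7 and 19.4 FPKM, with the drug and antibody group highest. INCENP, the scaffold, was at 30.0, 25.9, 26.8 and 25.5 FPKM and CDCA8 (borealin) at 29.1, 23.5, 26.7 and 25.4 FPKM. In both, the 3 treated means were below control, with 4HC log2 ratios of −0.21 and −0.31.

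Of the 6 centromere and kinetochore genes, CENPA, CENPF and NUF2 were lower after 4HC beyond 0.32, and the median was −0.29. CENPA, the histone H3 variant of centromeres, was at 35.3 FPKM in control cells, 27.7 after 4HC, 35.4 after 4HC plus antibody and 33.6 after IFNβ. The 4HC mean stood apart from the other 3. CENPF, a large protein of the outer kinetochore, was at 12.8, 9.74, 10.2 and 11.8 FPKM, and NUF2 at 14.2, 10.9, 12.1 and 13.4 FPKM. NUF2, NDC80 and SPC25 are parts of one complex that binds microtubules, and they did not share a value, with 4HC log2 ratios of −0.38, −0.00 and −0.12. NDC80 was at 14.4, 14.3, 15.4 and 14.2 FPKM, and its mean, like that of SPC25, was highest after 4HC plus antibody as deposited. With the groups rescaled to one sum, NDC80 had log2 0.043 for 4HC and 0.002 for 4HC plus antibody against control. CENPE, the kinetochore motor, was at 10.3, 8.69, 8.36 and 12.7 FPKM and was highest with IFNβ.

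The spindle motors and assembly factors had a median of −0.33, with KIF11, KIF2C and KIF4 past the 0.32 line. KIF11 (Eg5), which pushes the spindle poles apart, was at 18.1 FPKM in control cells, 13.0 after 4HC, 13.9 after 4HC plus antibody and 17.1 after IFNβ. KIF2C, which depolymerizes microtubules at centromeres, was at 19.4, 15.3, 17.4 and 17.5 FPKM (log2 −0.34), and KIF4, a chromosome-bound motor, had log2 −0.33. In all 3 motors control was highest and 4HC lowest as deposited. Rescaling the groups to one sum turned the order of the drug-treated groups for KIF11 and KIF4. TPX2, the activator of AURKA, was at 32.4, 28.9, 30.2 and 31.2 FPKM (log2 −0.16), and NUSAP1, which bundles spindle microtubules, at 8.88, 7.64, 8.74 and 8.99 FPKM (log2 −0.21).

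The midzone and cytokinesis genes, which act after the chromosomes have parted, had a median of −0.32. KIF23, a motor of the centralspindlin complex, was at 16.0 FPKM in control cells, 11.1 after 4HC, 12.2 after 4HC plus antibody and 15.3 after IFNβ, a 1.44-fold lower mean with 4HC. ECT2, which activates RhoA at the division site, was at 13.0, 10.1, 10.6 and 12.6 FPKM (log2 −0.36), and PRC1, which bundles midzone microtubules, at 29.8, 23.9, 24.5 and 28.9 FPKM (log2 −0.32). In these 3 genes both drug-treated means lay below the IFNβ mean. The motor KIF20A was at 18.6, 15.8, 17.5 and 17.3 FPKM (log2 −0.24). ANLN (anillin, a contractile ring scaffold), at 27.9, 25.3, 25.6 and 26.1 FPKM, had the smallest difference of these 5, at −0.14. TPX2, NUSAP1 and KIF20A, and FOXM1 in the next group, overlap other rows of the table.

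All 3 genes of chromosome structure and transcription were lower beyond 0.32. MKI67 (Ki-67, which coats mitotic chromosomes and is the usual marker of cycling cells, mm9 chromosome 7, 142881470 to 142908062) was at 10.3 FPKM in control cells, 5.93 after 4HC, 6.24 after 4HC plus antibody and 9.25 after IFNβ. Its mean was 1.72-fold lower after 4HC, the largest difference among the 42, and 0.829% of the 9890 genes had a lower ratio. FOXM1, the transcription factor that activates many G2 and M phase genes, was at 20.1, 15.1, 13.0 and 17.1 FPKM, lowest with 4HC plus antibody. TOP2A was at 80.8, 63.5, 65.1 and 84.6 FPKM, and its 2 drug-treated means stood together below the others.

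**Figure D3:**
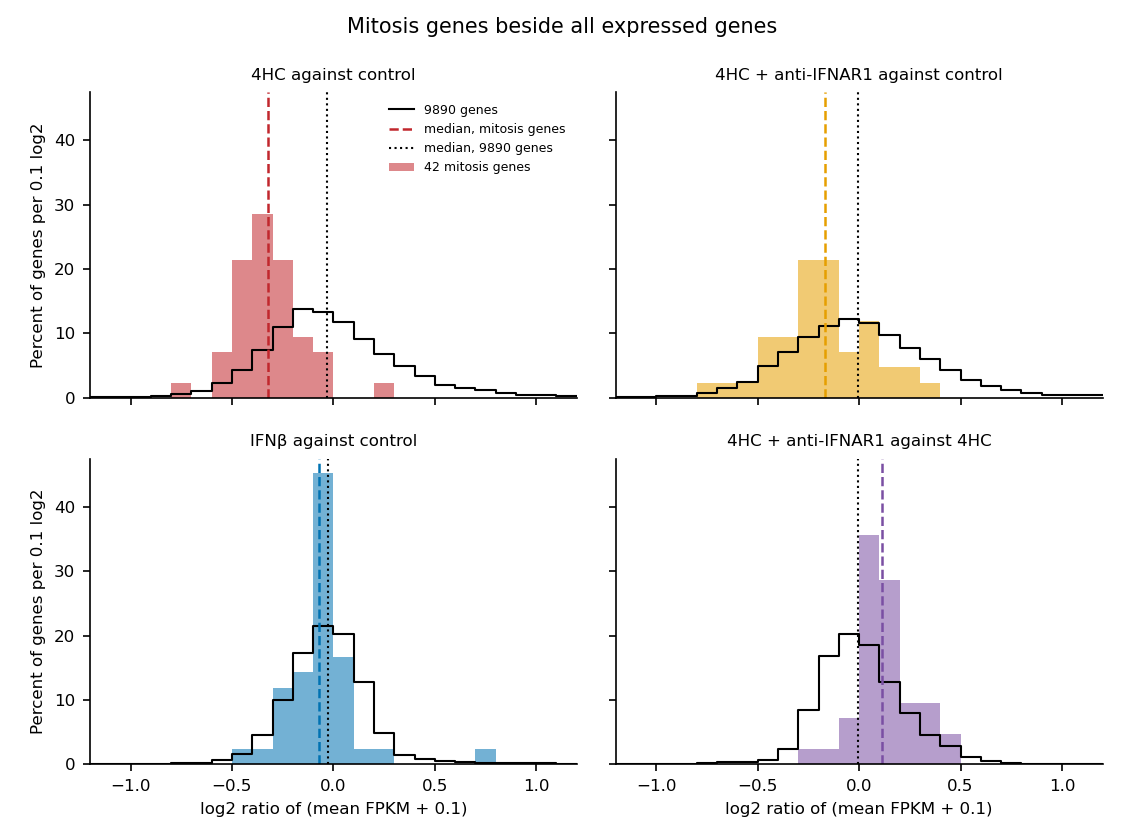
Percent of genes per 0.1 log2 of the ratio of group means, for the 42 mitosis genes (filled) and all 9890 genes (black line), between −1.2 and 1.2, with the median of each set as a dashed and a dotted line. The mitosis genes lie left of all genes after 4HC (medians −0.32 and −0.03) and close to them with IFNβ (−0.07 and −0.03).

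With 4HC and the antibody, 32 of the 42 genes were below control and 10 above as deposited, where 50.6% of all genes were below. After rescaling to one sum the counts were 36 and 6, and the median of all genes was lower too, at −0.10. As deposited, the median log2 ratio was −0.17 against −0.01 for all genes. Beyond 0.32, 9 were lower against 16.0% of all genes, and 0 were higher against 18.7%, so the share of mitosis genes past the lower line (9 of 42) was not far from that of all genes. None of the 42 passed 2-fold, lower (0.303% of all genes) or higher (2.82%). The 9 were MKI67 (log2 −0.71), FOXM1 (−0.62), PLK1 (−0.50), ESPL1 (−0.48), BUB1B (−0.44), CDC25B (−0.43), CCNA2 (−0.41), KIF23 (−0.39) and KIF11 (−0.38). When the groups were rescaled to one sum, 20 of the 42 were lower beyond 0.32 against 24.3% of all genes, so the count depends on the scale. The order of the drug-treated groups turned with it, from 21 lower with 4HC alone and 9 with the antibody as deposited to 15 and 20.

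The direct comparison of 4HC and antibody with 4HC alone shares the drug-treated libraries with the comparisons above. As deposited, 37 of the 42 genes had the higher mean with the antibody, where 49.0% of all genes did. The other 5 (PLK1, BUB1B, ESPL1, CENPE and FOXM1) had the lower one. The median log2 ratio was 0.12 against −0.01 for all genes. Beyond 0.32, 5 were higher against 8.35% of all genes and 0 were lower against 4.85%. The 5 were BIRC5 (1.34-fold), MAD2L1 (1.32-fold), UBE2C (1.30-fold), BUB3 (1.28-fold) and CENPA (1.27-fold). None of the 42 passed 2-fold, lower (124 of the 9890 genes) or higher (18 of them). The direction depends on the scale. Rescaling the groups to one sum moves every log2 ratio of this comparison by −0.14. The median was then −0.03 against −0.14 for all genes, with 18 of the 42 above 0 and 24 below. The share of all genes above 0 was not computed on that scale. Beyond 0.32, 0 of the 42 were then higher against 2.94% of all genes and 1 was lower against 16.1%.

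Transcript length moved with this comparison and with others, a description chosen after the values were seen. Across the 9390 genes with a length in GENCODE M21, taken as the longest protein-coding transcript, Spearman's rho between length and the log2 ratio of 4HC plus antibody against 4HC was −0.589, and across the 42 mitosis genes it was −0.437. With the median transcript length instead, the values were −0.474 and −0.254. The same libraries and lengths enter every point, so these are descriptions without a test. All genes under 2000 bases had a median ratio of 0.18 and those over 4000 bases −0.12. The 9 mitosis genes under 2000 bases had 0.22, the 20 between 2000 and 4000 bases 0.12 and the 13 over 4000 bases 0.07. In each class the mitosis genes were above all genes, and 38 of the 42 lay above the median of all genes of like length (10 bins of equal size), by a median of 0.14. MAD2L1, with a longest transcript of 7557 bases and a ratio of 0.40, lay far above the line of all genes. Against control, the rho across all genes was −0.354 for 4HC plus antibody and −0.356 for IFNβ, and across the 42 genes −0.438 and −0.0798. For 4HC against control it was 0.0161 across all genes, and 39 of the 42 genes lay below the median of their length bin. The part of transcript length in these differences was not tested.

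**Figure D4:**
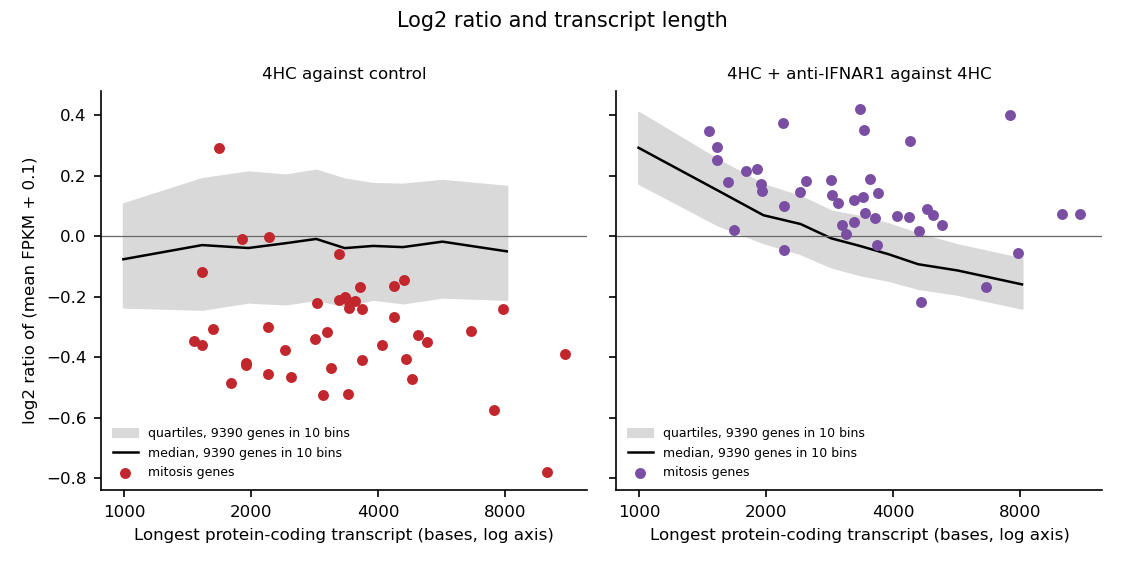
Log2 ratio of group means against the longest protein-coding transcript in bases (log axis), for 4HC against control (left) and 4HC with antibody against 4HC (right). Points are the 42 mitosis genes, and the black line and grey band are the median and quartiles of 9390 genes in 10 length bins. The band slopes down on the right (median 0.29 in the shortest bin and −0.16 in the longest) and is nearly flat on the left.

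With IFNβ, 32 of the 42 genes were below control and 10 above as deposited, where 56.3% of all genes were below. The counts were 38 and 4 after rescaling to one sum, which put the median of all genes at −0.10. They were 26 and 16 after centring on the median of all genes, which puts that median at 0. As deposited, the median log2 ratio was −0.07 against −0.03 for all genes. Beyond 0.32, 2 were lower against 6.31% of all genes, and 1 was higher against 5.21%. By more than 2-fold, 0 were lower (0.121% of all genes) and 0 higher (1.8%). The lower genes were ESPL1 (log2 −0.44) and CDC25B (−0.34). The higher one was PTTG1, 1.71-fold above control at log2 0.78, a ratio greater than that of 97.7% of all genes. CENPE, at log2 0.30, and CDK1, at 0.14, came next above control. Separase and securin, enzyme and inhibitor, therefore stood at opposite ends of the IFNβ ratios of this set. The 4 genes above control on every scale tried were CDK1, BUB3, PTTG1 and CENPE.

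The 4HC ratios and the IFNβ ratios share the control libraries, so they are given side by side only. For MKI67 they were −0.78 and −0.15, for MAD2L1 −0.58 and −0.08, for CCNA2 −0.53 and 0.01, for KIF23 −0.52 and −0.06, and for CDC20 −0.49 and −0.25. These 5 genes have the largest 4HC differences. The IFNβ cells were collected 6 h after the start of treatment and the 4HC cells 72 h after it, so agent and time cannot be told apart.

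Another 103 genes of mitosis were compared in the same way, and all passed the 1 FPKM level. Their 6 lists were chosen by function, with earlier results of these data known. After 4HC, 92 of the 103 were below control and 11 above, where 54.6% of all genes were below. The median log2 ratio was −0.25. Beyond 0.32, 37 were lower against 14.6% of all genes, and 1 was higher against 16.3%. The lower means were thus not particular to the 42 genes. Condensin, which compacts chromosomes, had all 8 genes below control and a median of −0.32, from NCAPD2 (34.9 FPKM in control and 23.9 after 4HC, log2 −0.54) to NCAPG (−0.10), with SMC4 the most abundant (48.0 and 39.9 FPKM). Cohesin, which joins sister chromatids, had a median of −0.20 and 9 of 11 genes below control, from RAD21, its most abundant member and the subunit that separase cuts (53.3 and 38.2 FPKM, −0.48), to NIPBL, the cohesin loader, at 0.17.

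APC/C subunits and regulators had a median of −0.23 with 12 of 14 below control, from ANAPC1 (−0.49) to ANAPC11 (0.07), with ANAPC5 the most abundant. Other kinetochore and checkpoint genes had a median of −0.15 with 28 of 32 below, from SPC24 (10.5 FPKM in control and 6.22 after 4HC, −0.75) to MIS12 (0.16). SPC24 is the partner of SPC25 in the NDC80 complex, so its ratio and the −0.12 of SPC25 differed within one pair. Other spindle and cytokinesis genes had a median of −0.34 with all 23 below, from FAM64A (24.5 and 13.7 FPKM, −0.83) to CIT (−0.02), with RACGAP1, the partner of KIF23 in centralspindlin, the most abundant (47.8 and 36.9 FPKM). Regulators of CDK1 and of G2/M transcription had a median of −0.27 with 12 of 15 below, from PBK (−0.50) to LIN37, a MuvB subunit, at 0.43 (4.42 and 5.98 FPKM). CKS1B, a small CDK-binding protein, was the most abundant of them (85.1 and 64.1 FPKM).

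In the remaining comparisons the 103 genes followed the same order of medians. The median was −0.15 for 4HC plus antibody against control (21 lower against 16.0% of all genes and 6 higher against 18.7%, beyond 0.32), −0.04 for IFNβ (2 lower against 6.31%, 1 higher against 5.21%) and 0.09 for 4HC plus antibody against 4HC (0 lower against 4.85%, 13 higher against 8.35%), a value that the −0.14 of rescaling to one sum turns below 0. OIP5, a centromere protein whose row overlaps that of NUSAP1, had the highest IFNβ ratio among the kinetochore genes (log2 0.46). Of genes outside mitosis, 23 genes of DNA replication had a 4HC median of −0.24, with 19 below control, from TYMS, thymidylate synthase (5.58 and 3.49 FPKM, −0.66), to GINS3 (0.28), with PCNA, the sliding clamp, the most abundant (91.4 and 77.1 FPKM). The 14 control genes in common use for normalization had a 4HC median of −0.22, with 12 below control and 2 above. Of all genes, 54.6% were below control. PGK1 had the lowest ratio (355.9 and 246.2 FPKM, −0.53), and EEF1A1, the most abundant, had −0.14. Of the 14, 3 were lower beyond 0.32, against 14.6% of all genes and 21 of the 42 mitosis genes. Lower means with 4HC therefore extended to most control genes, with a median of −0.22 beside the −0.32 of the mitosis genes.

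**Figure D5:**
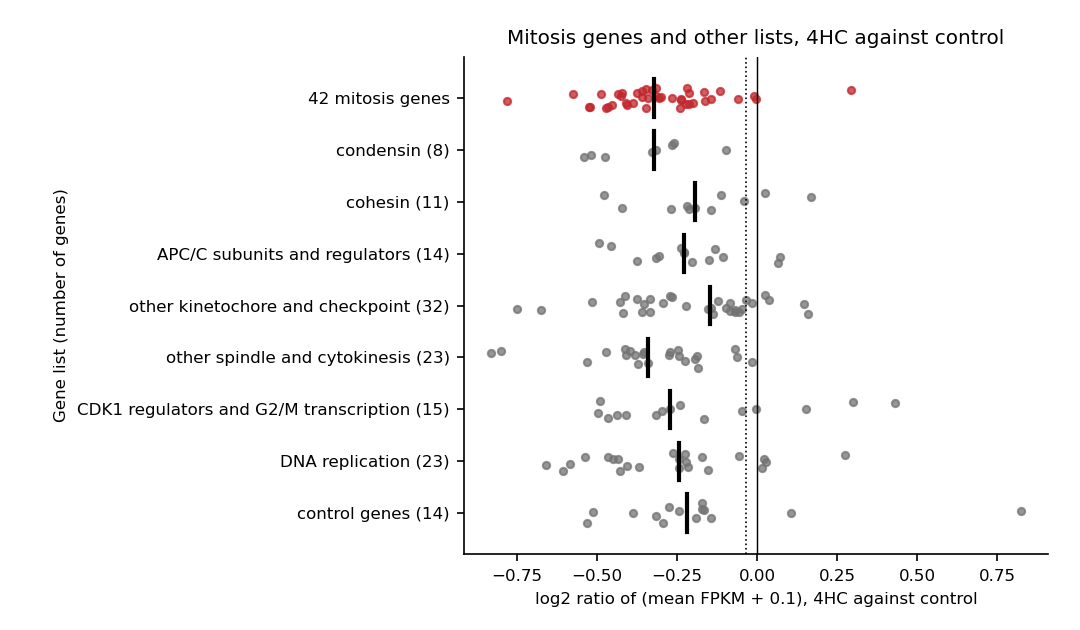
Log2 ratio of 4HC against control for the 42 mitosis genes (red), the 103 other mitosis genes in 6 lists, 23 DNA replication genes and 14 control genes (grey). Each point is a gene, spread vertically for visibility, the short black bar is the list's median, and the dotted line is the median of all 9890 genes (−0.03). The medians run from −0.34 (other spindle and cytokinesis) to −0.15 (other kinetochore and checkpoint), with the mitosis genes at −0.32 and the control genes at −0.22.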

How the data were processed

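PolyA RNA was sequenced as stranded libraries from 12 cultures of E0771 cells, 3 per group, grouped by the treatment given in the labels. The submitters' processing notes name TopHat2 as aligner, mm9 as genome build, featureCounts for counting and edgeR for the group comparisons. Versions, the strand setting and the handling of reads that map to several places are not given in the sources used here. The deposited table holds the authors' mean FPKM per group for 24197 genes, with no value per library. Its columns of the authors' ratios, signed fold changes and P values were not used.

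From the group means, log2 ratios were computed after adding 0.1 FPKM, over genes with a mean of at least 1 FPKM over the 4 groups, and counted past 0.32 on the log2 scale (a mean 20% lower or 25% higher) and past 2-fold. No test could be computed from the group means, and depth per library is not known from the table. The members and lists were chosen with earlier results of these data known. All 42 members are described, and from each other list the gene of highest mean, largest fall and largest rise. For IFNβ, the treatment protocol of the labels states collection 68 h after the wash, whereas the treatment label, the table header and the study's methods give 2 h, which was used. Promoters (GRCm38.p6) came from RefSeq, lengths from GENCODE M21, matched by symbol or synonym. The counting script was tested on simulated data. Alternatives were other pseudocounts, minimums, scalings and a 1.5-fold threshold. Calculations used numpy 2.4.6, pandas 2.3.3 and scipy 1.17.1 under Python 3.11.15, and matplotlib 3.10.9 drew the plots. The values of 1 control gene, counted in its list, are not reported here.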

Additional observations from a re-analysis of the deposited data

How the results depend on the processing

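Pseudocounts of 0.01 and 1 FPKM moved no median of the mitosis genes by as much as 0.1 log2 and no count by 1.5 times. The minimum could hardly move these values, since it only sets which genes are kept, and 41 of the 42 reach 5 FPKM. It did move the values of all genes. With no minimum, 9.31% of all genes were lower after 4HC beyond 0.32 in place of 14.6%, and 22.3% higher in place of 16.3%. Their median was 0.05 in place of −0.03. Of 128 values recomputed under alternatives, 116 stayed within the limits of 0.1 log2 and 1.5 times. They include the past-2-fold counts, 0 under every setting, and the values under other minimums, so the 116 is no measure of stability. At a threshold of 1.5-fold, 1 gene was lower after 4HC in place of 21, against 2.69% of all genes. With 4HC plus antibody, 2 were lower in place of 9 (3.46% of all genes), and with IFNβ 0 in place of 2 (0.748%). For antibody against 4HC, 0 were higher in place of 5 (1.09%). At 1.5-fold the share of mitosis genes lower after 4HC was thus near that of all genes. Centring on the median of all genes gave 1 higher gene after 4HC in place of 0, against 18.2% of all genes. With IFNβ it gave 1 lower in place of 2 (4.87% of all genes) and 2 higher in place of 1 (5.79%). Rescaling the groups to one sum gave 1 higher gene after 4HC (18.9% of all genes) and 20 lower with 4HC plus antibody against control (24.3%). For antibody against 4HC it gave 1 lower (16.1%), 0 higher (2.94%) and a median of −0.025 in place of 0.115. This reversal follows from the rescaling itself, which lowers every ratio of that comparison by 0.14 (log2 shift −0.14). No paired analysis was possible because the table holds group means only, and leaving out a replicate could not be run for the same reason. Most differences of the mitosis genes are under 1.5-fold, a size for which replicate values would be needed.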
